A study of Mus musculus with 4 samples.

Results

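The genes examined here carry the calcium cycle and the natriuretic peptides of the heart muscle cell. They are 10 named genes, *Nppa*, *Nppb*, *Ryr2*, *Atp2a2*, *Pln*, *Cacna1c*, *Slc8a1*, *Casq2*, *Hcn4* and *Gja1*, out of the 21951 protein-coding genes of the GENCODE M21 annotation. For each gene, all differential peaks of open chromatin were taken that lay in the gene body or within 10 kb of one of its transcription start sites (TSSs).

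Chromatin accessibility was measured by ATAC-seq, in which the Tn5 transposase cuts DNA that is not wrapped in nucleosomes, in mouse hearts at embryonic day 9.5. There were 2 libraries from *Smyd1-KO* hearts and 2 from wild-type (WT) hearts, each made from 40000 viable cells out of a pool of 4 whole hearts. *Smyd1-KO* embryos carry the null alleles of *Smyd1* in every cell from conception. The gene encodes a histone methyltransferase of striated muscle, which in the heart the paper places mainly in cardiomyocytes. The pools also hold the other cell types of the heart, so a gain cannot be assigned to heart muscle cells from the lists. Of the peaks that differed by 2-fold or more in tags, 25745 were higher in *Smyd1-KO* (gained peaks) and 106 were higher in WT (lost peaks), all of the same width.

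Because both libraries of each genotype were pooled ahead of the comparison, no value has a replicate error, and no test between the genotypes was made. The score of a gained peak is its pooled tag count in *Smyd1-KO*, in steps of 0.5. It is a level in *Smyd1-KO*, not a fold change. Its exact Poisson 95% interval treats the score as a count and covers counting error only. Peaks open to a like degree in both genotypes are on neither list. A gene without a listed peak may therefore be fully open in both genotypes or closed in both. Depth per library is unknown from the lists, and how much of the 25745 to 106 split comes from the scaling between the genotypes was not tested.

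In a heart muscle cell, calcium enters through the L-type channel, whose pore is encoded by *Cacna1c*, and opens the ryanodine receptor (*Ryr2*), which releases calcium held in the sarcoplasmic reticulum on calsequestrin (*Casq2*). The pump SERCA2 (*Atp2a2*), held back by phospholamban (*Pln*), returns calcium to the store, and the sodium-calcium exchanger (*Slc8a1*) expels it from the cell. HCN4 is the pacemaker channel, connexin 43 (*Gja1*) couples neighbouring cells, and *Nppa* and *Nppb* encode the peptide hormones ANP and BNP, known markers of embryonic and stressed heart muscle.

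Accessibility was gained at 8 of the 10 genes, with 30 gained peaks in all, and no lost peak lay at any of them. By role, gained peaks were found at both hormone genes, at the release genes *Ryr2* and *Casq2*, at the entry and exit genes *Cacna1c* and *Slc8a1*, at *Pln* and at *Hcn4*. *Atp2a2* and *Gja1* had none. The 8 of 10 genes are 80% (exact Clopper-Pearson 95% interval 44.4% to 97.5%), beside 62.6% of all protein-coding genes under the same rule. A gained peak within 1 kb of a TSS was present at 6 of the 10, 60% (26.2% to 87.8%), beside 48.1% of all genes. Both background shares lie inside these intervals, which are wide with 10 genes. The genes were chosen and not drawn at random, so the intervals are no test against genes at large, and no difference is read. For lost peaks the background is 0.155% of genes, so a count of 0 of 10 says little about these genes.

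Among all protein-coding genes, long genes more often had a gained peak. *Ryr2*, *Cacna1c* and *Slc8a1* are over 100 kb long, and 3 of these 3 had a gained peak, beside 87.8% of all protein-coding genes of at least 100 kb. Of the 7 shorter genes 5 had one, beside 59.3% of all shorter genes.

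**Figure D1:**
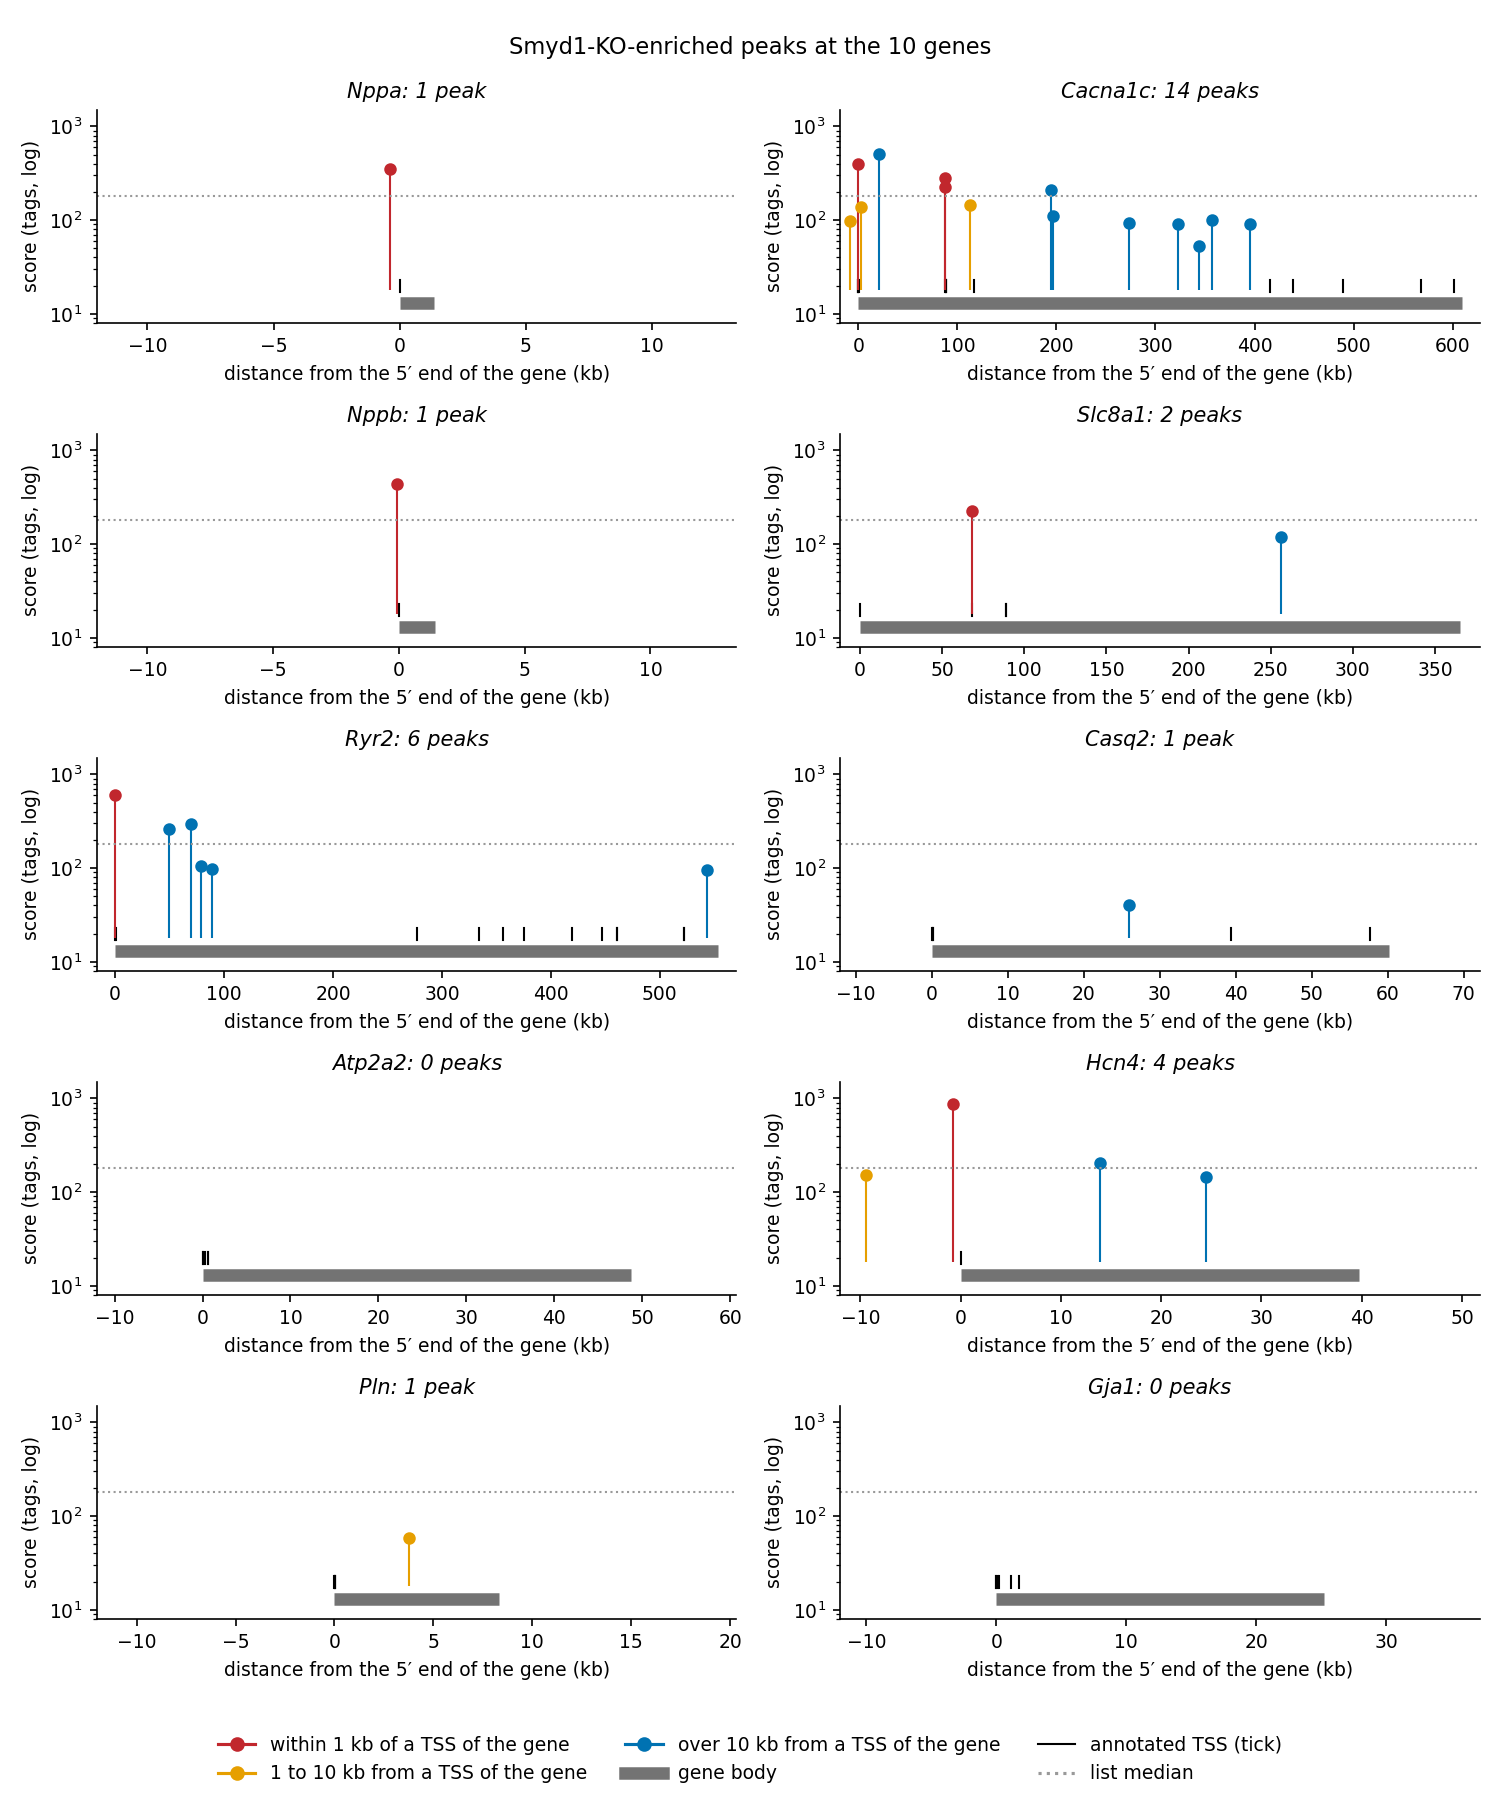
Gained peaks along each of the 10 genes. The x axis is the distance in kb from the 5′ end of the gene, the y axis is the score in tags on a log scale, grey bars are gene bodies, black ticks are annotated TSSs and the dotted line is the list median of 180.5 tags. *Cacna1c* has 14 peaks and *Ryr2* 6, the peak upstream of *Hcn4* is the highest at 866 tags, and *Atp2a2* and *Gja1* have none.

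The sequences that carry the gain at the promoters are shown first, because they range from CpG-poor to CpG-rich. Of 8 such promoter peaks, up to 1 kb from a start of their gene, 7 are printed, and the other, a *Cacna1c* peak of 279 tags next to the CpG-rich internal one, has 54.4% GC and 4 CpGs. Each is the full peak on mm10 (the GRCm38 sequence), read 5′ to 3′ on the strand of the gene. Capitals mark matches, on either strand, to the letters of motifs known for heart or promoter factors, and neighbouring or overlapping matches run together. The letters searched were GGGCGG for the zinc finger factors of the SP and KLF families, GGAATG for the TEAD factors that act with the Hippo pathway, and AGATAA for the GATA factors of heart and blood. They were AGGTGTG for the T-box factors of the heart, TNAAGTG for the homeobox factor NKX2-5 of early heart muscle, and TACGTG for the hypoxia-inducible factors (HIF). The CArG box, the MEF2 consensus and the CTCF core were searched too and are given by name.

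Nppa, chr4:148000277-148000425, plus strand, 297 bp upstream of the TSS: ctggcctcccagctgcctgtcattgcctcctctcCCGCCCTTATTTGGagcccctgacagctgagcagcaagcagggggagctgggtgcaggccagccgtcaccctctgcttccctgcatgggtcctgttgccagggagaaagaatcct
Nppb, chr4:147985654-147985802, plus strand, over the GENCODE TSS: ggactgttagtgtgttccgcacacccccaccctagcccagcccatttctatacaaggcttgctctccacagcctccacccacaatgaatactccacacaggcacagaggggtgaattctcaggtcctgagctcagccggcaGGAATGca
Ryr2, chr13:12106832-12106980, minus strand, over the TSS: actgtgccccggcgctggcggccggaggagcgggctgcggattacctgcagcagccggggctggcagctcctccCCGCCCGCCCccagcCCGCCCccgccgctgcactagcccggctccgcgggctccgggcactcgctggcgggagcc
Cacna1c, chr6:119196525-119196673, minus strand, upstream of the outermost TSS: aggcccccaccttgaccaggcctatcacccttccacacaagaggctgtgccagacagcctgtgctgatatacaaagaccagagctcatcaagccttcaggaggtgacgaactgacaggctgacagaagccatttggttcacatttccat
Cacna1c, chr6:119108579-119108727, minus strand, upstream of an internal TSS: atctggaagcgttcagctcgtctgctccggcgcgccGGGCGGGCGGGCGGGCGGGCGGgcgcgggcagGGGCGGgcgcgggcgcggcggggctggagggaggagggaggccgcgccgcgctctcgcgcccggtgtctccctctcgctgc
Slc8a1, chr17:81670201-81670349, minus strand, upstream of an internal TSS: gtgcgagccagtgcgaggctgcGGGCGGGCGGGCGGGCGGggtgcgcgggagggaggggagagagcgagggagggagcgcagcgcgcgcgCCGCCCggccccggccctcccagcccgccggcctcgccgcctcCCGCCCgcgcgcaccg
Hcn4, chr9:58822578-58822726, plus strand, upstream of the TSS: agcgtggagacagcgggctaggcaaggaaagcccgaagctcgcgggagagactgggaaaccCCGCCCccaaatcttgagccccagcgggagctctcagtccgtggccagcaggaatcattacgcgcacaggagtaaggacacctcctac

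These peaks differ widely in base composition. The *Slc8a1* peak has 85.9% GC and 27 CpG dinucleotides, the internal *Cacna1c* peak 82.6% GC and 27 CpGs, and the *Ryr2* peak 80.5% GC and 18 CpGs. The *Hcn4* peak lies between, with 62.4% GC and 10 CpGs. The hormone genes are at the other end: the *Nppa* peak has 63.1% GC but 2 CpGs, the *Nppb* peak 56.4% GC and 2 CpGs, and the outermost *Cacna1c* peak 53.0% GC and 1 CpG. The median of all gained peaks within 1 kb of a protein-coding TSS is 66.4% GC and 13 CpGs.

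Taking for each gene the highest peak up to 1 kb from one of its own starts, *Hcn4* stood highest at 866 tags (809 to 926), followed by *Ryr2* at 601 (554 to 651), *Nppb* at 437 (397 to 480), *Cacna1c* at 395 (357 to 436), *Nppa* at 347.5 (312 to 386) and *Slc8a1* at 224.5 (196 to 256). Neighbours in this order do not overlap in their counting intervals, apart from *Cacna1c*, whose interval overlaps those of *Nppb* and of *Nppa*. The lower *Cacna1c* promoter peaks, of 279 and 226 tags, stand between *Nppa* and *Slc8a1* and overlap *Slc8a1* in their intervals, and that of 279 tags overlaps *Nppa* as well. Of all gained peaks, 5.11% score above the *Hcn4* peak, 13.3% above that of *Ryr2* and 43.8% above that of *Slc8a1*. The gained peaks of *Pln* (58.5 tags, 44.5 to 75.5) and *Casq2* (40.5 tags, 29.0 to 55.0) are not within 1 kb of a TSS and are low, with 85.9% and 96.5% of the list above them.

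The hormone genes *Nppb* and *Nppa* are neighbours on chromosome 4, with TSSs 14934 bp apart and the same direction of transcription. Each is under 2 kb long with a sole annotated TSS, and each had 1 gained peak. The *Nppb* peak of 437 tags covers the GENCODE TSS (chr4:147985788) and ends 98 bp before the start that RefSeq gives, which lies 112 bp further in, and the *Nppa* peak of 347.5 tags ends 297 bp before the TSS (chr4:148000722), which is the same in both annotations. The *Nppb* interval starts at 397 tags, above the upper bound of 386 tags for *Nppa*. Against peaks of the same class, 47.4% of gained peaks within 1 kb of a protein-coding TSS score above the *Nppb* peak and 61.3% above the *Nppa* peak, so both are of ordinary height for a promoter peak.

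The *Nppa* peak holds a CArG box, the element bound by serum response factor, at bases 39 to 48, with its nearer end 398 bp before the TSS. An SP/KLF match at bases 35 to 40 overlaps it. A CArG box occurs in 0.897% of all gained peaks and in 0.653% of those within 1 kb of a protein-coding TSS. The *Nppb* peak holds a TEAD match whose first base lies 7 bp after the GENCODE TSS and so before the RefSeq start, and TEAD letters occur in 10.6% of the list. These letters are in the windows, and binding was not measured.

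For the DNA between the peaks and the genes, the RefSeq promoter windows (GRCm38.p6, 250 bases before to 50 after the RefSeq start) are shown. By these starts both peaks lie upstream, the *Nppb* peak within its window and the *Nppa* peak before the window begins.

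Nppa promoter, chr4:148000472-148000771, plus strand: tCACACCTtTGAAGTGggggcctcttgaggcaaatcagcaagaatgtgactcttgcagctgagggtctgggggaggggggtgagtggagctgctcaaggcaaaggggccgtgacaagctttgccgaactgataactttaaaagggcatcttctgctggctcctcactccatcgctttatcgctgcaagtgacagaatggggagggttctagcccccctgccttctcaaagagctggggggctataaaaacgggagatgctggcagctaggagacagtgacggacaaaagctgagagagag
Nppb promoter, chr4:147985650-147985949, plus strand: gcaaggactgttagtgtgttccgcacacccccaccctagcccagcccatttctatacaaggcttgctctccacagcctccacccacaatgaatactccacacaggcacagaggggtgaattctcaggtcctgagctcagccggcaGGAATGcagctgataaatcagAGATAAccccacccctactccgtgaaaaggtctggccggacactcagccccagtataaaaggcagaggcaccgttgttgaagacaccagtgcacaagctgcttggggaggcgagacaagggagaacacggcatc

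The *Nppa* window holds a T-box match next to an NKX2-5 match at its far end, letters found in 5.84% and 11.5% of all 32851 RefSeq promoter windows. The *Nppb* window holds the TEAD match of the peak and a GATA match, found in 14.7% and 11.2% of all windows. At *Nppa* the CArG box therefore lies in the listed gained peak, and the NKX2-5 and T-box letters lie in DNA closer to the gene. That DNA is on neither list. Since all listed peaks have the same width, their edges do not mark where the opened DNA ends. Whether the gain at *Nppa* reaches the NKX2-5 and T-box letters was not tested.

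More gained peaks lay around the pair, beyond the 10 kb window. Upstream of *Nppb*, in the stretch before the next gene, 382 tags were found 16223 bp, 227 tags 19820 bp and 247.5 tags 21829 bp from the *Nppb* TSS. All 3 have *Nppb* as the nearest protein-coding gene. They are lower than the *Nppb* promoter peak, and the highest of them ranks close to the *Nppa* peak, with 27.3% of the list above it against 30.4%. The next peaks on either side lie at promoters of other genes, at *2510039O18Rik* (250 tags) and *Plod1* (322.5 tags) upstream and at *Clcn6* (890.5 tags) downstream. No gained peak lay between the *Nppb* and *Nppa* peaks, a distance of 14474 bp, nor between the *Nppa* peak and the *Clcn6* promoter.

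**Figure D2:**
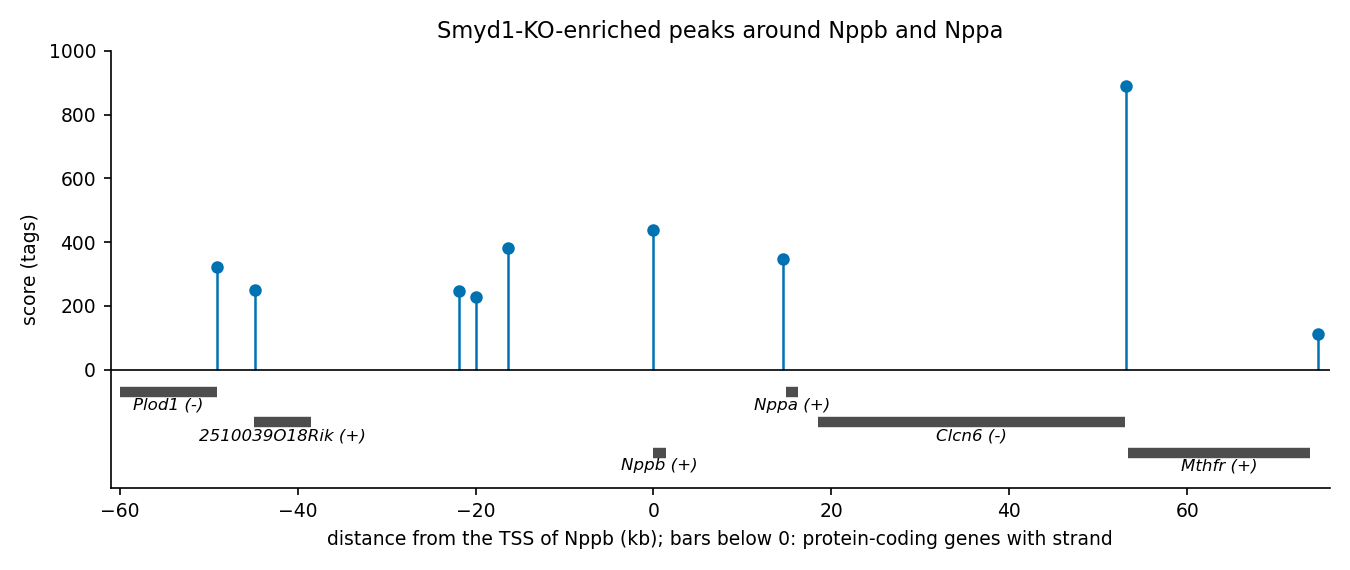
Gained peaks around the hormone genes. The x axis is the distance in kb from the *Nppb* TSS, the y axis is the score in tags, each stem is 1 peak, and bars under the axis are protein-coding genes with their strand. The peaks of *Nppb* (437 tags) and *Nppa* (347.5 tags) stand with 3 upstream peaks between 227 and 382 tags, and the tallest stem (890.5 tags) is at the start of *Clcn6*.

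*Ryr2*, the release channel, spans 553.844 kb (chr13:11553102-12106945, minus strand) and had 6 gained peaks. The highest, 601 tags, covers the start of the 105-exon reference transcript and lies in its untranslated exon 1. The peak carries 3 SP/KLF matches, as shown above, and 28.3% of gained peaks within 1 kb of a protein-coding TSS score higher. Then 4 peaks lie in intron 1, at 261.5 tags (49.4 kb from the start), 293 tags (69.9 kb), 105 tags (78.5 kb) and 99 tags (88.8 kb). The last, 95 tags, lies in intron 100 near the 3′ end, after 454.124 kb without a gained peak. Of the 12 annotated TSSs of *Ryr2*, 2 have a gained peak within 1 kb, and both are at the 5′ end.

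The intron 1 pair of *Ryr2* is high for its place. Only 6.52% of the 10440 gained peaks over 10 kb from a protein-coding TSS score above 293 tags, and 8.45% score above 261.5. Their counting intervals, 260 to 329 and 231 to 295, overlap each other and do not reach those of the other 3 *Ryr2* peaks away from the TSS, which run from 76.9 to 127. The peak of 293 tags is shown because it holds 1 of the 3 GATA matches among the 6 *Ryr2* peaks.

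Ryr2 intron 1, chr13:12036930-12037078, minus strand: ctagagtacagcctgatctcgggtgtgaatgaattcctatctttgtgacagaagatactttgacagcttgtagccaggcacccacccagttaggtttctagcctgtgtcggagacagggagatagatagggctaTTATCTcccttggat

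The other GATA matches of *Ryr2* are in the intron 1 peak of 105 tags and the intron 100 peak, which also holds the core letters of the insulator factor CTCF. GATA letters occur in 14.2% of gained peaks over 1 kb from a TSS and in 2.06% of those nearer. Outside the 10 kb window, gained peaks of 176.5 and 490 tags lay 25.3 and 26.7 kb upstream of *Ryr2*, and *Ryr2* is their nearest protein-coding gene.

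*Casq2*, which buffers the calcium that *Ryr2* releases, had a sole gained peak of 40.5 tags in intron 2 (chr3:102112273-102112421), 25.7 kb from the start of its reference transcript. It has no match to any motif searched, and 92.8% of gained peaks over 10 kb from a protein-coding TSS score higher. A second peak, 71 tags, lay 16.9 kb upstream, outside the window. The TSSs of *Casq2* had no gained peak within 1 kb.

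*Cacna1c*, the L-type channel gene, had the most gained peaks of the 10 genes, 14 over 609.179 kb (chr6:118587240-119196418, minus strand). Of all protein-coding genes, 0.0456% have more. Per length the gene is less exceptional, at 2.25 gained peaks per 100 kb of gene and window against a median of 0.938 among genes of at least 100 kb, 14.6% of which are denser. The gene has 14 annotated TSSs, and 8 of them had a gained peak within 1 kb, which reflects 3 peaks at 2 clusters of starts.

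The highest *Cacna1c* peak, 507 tags, does not lie at a *Cacna1c* start. It is 177 bp from a TSS of *Dcp1b*, a gene of messenger RNA decapping that overlaps the 5′ part of *Cacna1c*, and 20.6 kb from the nearest *Cacna1c* TSS. In total 4 of the 14 peaks lie inside *Dcp1b* as well, and which of these genes they belong to cannot be told apart from the lists. Without the 3 peaks whose nearest protein-coding TSS is that of *Dcp1b*, 11 peaks remain.

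At the outermost start of *Cacna1c*, 395 tags were found 107 bp upstream of the TSS. At 87.8 kb from the 5′ end, at a CpG-rich internal start, there were a peak of 279 tags (247 to 314) 650 bp upstream and a peak of 226 tags (197 to 257) 6 bp upstream of the same TSS, with 495 bp between them. The inner of these carries 6 SP/KLF matches, against 1 match or more in 53.8% of gained peaks within 1 kb of a TSS. It is low for its class, as 80.9% of such peaks score above 226 tags. The outermost peak, printed above, has no match to any motif searched.

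Inside the gene, 7 of the 14 peaks lie in intron 3 of the reference transcript, from 53 to 210.5 tags. The highest of them, 210.5 tags, is 2011 bp from a peak of 110.5 tags, and 12.8% of gained peaks over 10 kb from a TSS score above it. A peak of 145.5 tags lies in intron 1. The remaining intron 3 peaks, from 53 to 99.5 tags, lie between 273 and 396 kb from the 5′ end, and none of the 14 lies beyond that. One of them carries the MEF2 consensus, a motif of heart and skeletal muscle factors found in 1.76% of the list, and is shown for that.

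Cacna1c intron 3, chr6:118839534-118839682, minus strand: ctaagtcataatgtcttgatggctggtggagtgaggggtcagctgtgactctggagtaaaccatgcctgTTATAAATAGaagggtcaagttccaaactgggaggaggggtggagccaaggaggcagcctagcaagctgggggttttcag

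*Slc8a1*, the exchanger gene, had 2 gained peaks over 365.273 kb (chr17:81373105-81738377, minus strand), or 0.533 per 100 kb of gene and window, and 75.3% of genes of at least 100 kb are denser. The higher peak, 224.5 tags, is not at the outermost start but 68.0 kb inside, 14 bp upstream of an internal TSS. That TSS belongs to the transcript Slc8a1-205, which is outside the GENCODE basic set, and no gained peak lay within 1 kb of the other 3 TSSs. The peak, printed above, has 6 SP/KLF matches, 4 of them in 1 run of repeated GGGC. Of gained peaks within 1 kb of a protein-coding TSS, 81.1% score higher.

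The other *Slc8a1* peak, 119 tags, lies in intron 2, 168 kb from the nearest *Slc8a1* TSS, and also carries the MEF2 consensus. Its nearest protein-coding TSS is that of *Gm11096*, 40132 bp away. With *Cacna1c* intron 3 this makes 2 of the 30 peaks with that consensus, 6.67%, beside 1.76% of the list, and a difference of 1 peak would move this share by more than 3 percentage points.

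Slc8a1 intron 2, chr17:81481895-81482043, minus strand: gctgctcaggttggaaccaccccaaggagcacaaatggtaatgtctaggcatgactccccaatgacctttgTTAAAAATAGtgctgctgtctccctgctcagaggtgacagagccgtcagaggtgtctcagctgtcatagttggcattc

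The gene of the calcium pump is shorter than that of the release channel. Gained peaks were found at 59.3% of protein-coding genes under 100 kb, beside 87.8% of those of at least 100 kb. *Atp2a2* (chr5:122453513-122502225, minus strand, 48.7 kb) had no gained and no lost peak in its body or within 10 kb of any of its 5 TSSs. The nearest gained peak, of 524 tags (chr5:122520841-122520989), lay 18616 bp upstream of the TSS, and *Atp2a2* is its nearest protein-coding gene. It is higher than the promoter peaks of *Nppa* and *Nppb*, with 17.1% of the list above it. *Pln*, which encodes the inhibitor of the pump, had 58.5 tags in intron 1 (chr10:53341380-53341528), 3675 bp from a TSS. That peak lies inside *Cep85l* as well, and 85.2% of gained peaks between 1 and 10 kb from a protein-coding TSS score higher. It carries a HIF match, letters found in 1.60% of the list.

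*Hcn4*, the pacemaker channel, had 4 gained peaks over 39.764 kb (chr9:58823412-58863175, plus strand), 8.04 per 100 kb of gene and window. Of all protein-coding genes 2.46% have more peaks, and 8.84% are denser. The peak of 866 tags, the highest of all 30, lies 686 bp upstream of its sole GENCODE TSS and 223 bp upstream of the RefSeq start, and 11.0% of gained peaks within 1 kb of a protein-coding TSS score higher. The others were 206 tags in intron 1 (13870 bp from the TSS), 144.5 tags in intron 2 (24413 bp) and 153.5 tags 9380 bp upstream. The interval of the upstream peak (130 to 180 tags) overlaps those of both intron peaks, while those of the intron 2 peak (122 to 170) and the intron 1 peak (179 to 236) do not overlap. All 3 lie below that of the promoter peak.

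The upstream *Hcn4* peak, which is the closest to the 10 kb limit on the inside, holds a TEAD match, and the intron 2 peak holds a T-box match. T-box letters were found in 2 of the 30 peaks, the other being the *Dcp1b* promoter peak within *Cacna1c*, beside 1.82% of the list. The next peak upstream of *Hcn4*, of 428 tags at 20377 bp, falls outside the window and is higher than every *Hcn4* peak but that at the promoter.

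Hcn4 intron 2, chr9:58847825-58847973, plus strand: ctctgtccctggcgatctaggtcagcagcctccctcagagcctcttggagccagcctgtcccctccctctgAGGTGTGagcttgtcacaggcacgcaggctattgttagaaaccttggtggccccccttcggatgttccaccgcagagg

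*Gja1*, the connexin 43 gene (chr10:56377330-56402513, plus strand, 25.2 kb), had no gained peak in its body or within 10 kb of its 6 TSSs. The next gained peak upstream, of 100.5 tags, lay 37991 bp from a TSS, and the next downstream, of 95.5 tags, lay 29343 bp past the gene and 52768 bp from a TSS. Both have *Gja1* as the nearest protein-coding gene and lie below the list median of 180.5 tags. Its RefSeq promoter window has 47.7% GC and an observed/expected CpG ratio of 0.54, above the median of 0.38 over all windows. Among genes with a promoter peak the ratio was 0.28 at *Nppa*, 0.31 at *Nppb*, 0.48 at *Slc8a1*, 0.57 at *Ryr2* and 0.81 at *Hcn4*. The windows of *Cacna1c* had 0.15, 0.36 and 1.16. Without a promoter peak, *Pln* had 0.11 and *Casq2* 0.41. These windows need not hold the gained peak of the gene.

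The rule admits peaks in the gene body and near a TSS, and of the 30 an exon held 1, introns 23 and the DNA upstream of the gene 6, and none lay downstream. Their median score of 145 tags is below the list median of 180.5, and 13 of the 30 score above it. Read within classes of distance to the nearest protein-coding TSS, the order changes. Within 1 kb, 4 of 9 peaks exceed the class median of 420 tags (median of the 9, 395), and at 1 to 10 kb 3 of 5 exceed 123.5 tags. Over 10 kb away, 14 of 16 exceed the class median of 84.5 tags, with a median of 102.25 tags. The 16 come from 5 genes, and *Cacna1c* and *Ryr2* supply 12 of them, so they are not independent.

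**Figure D3:**
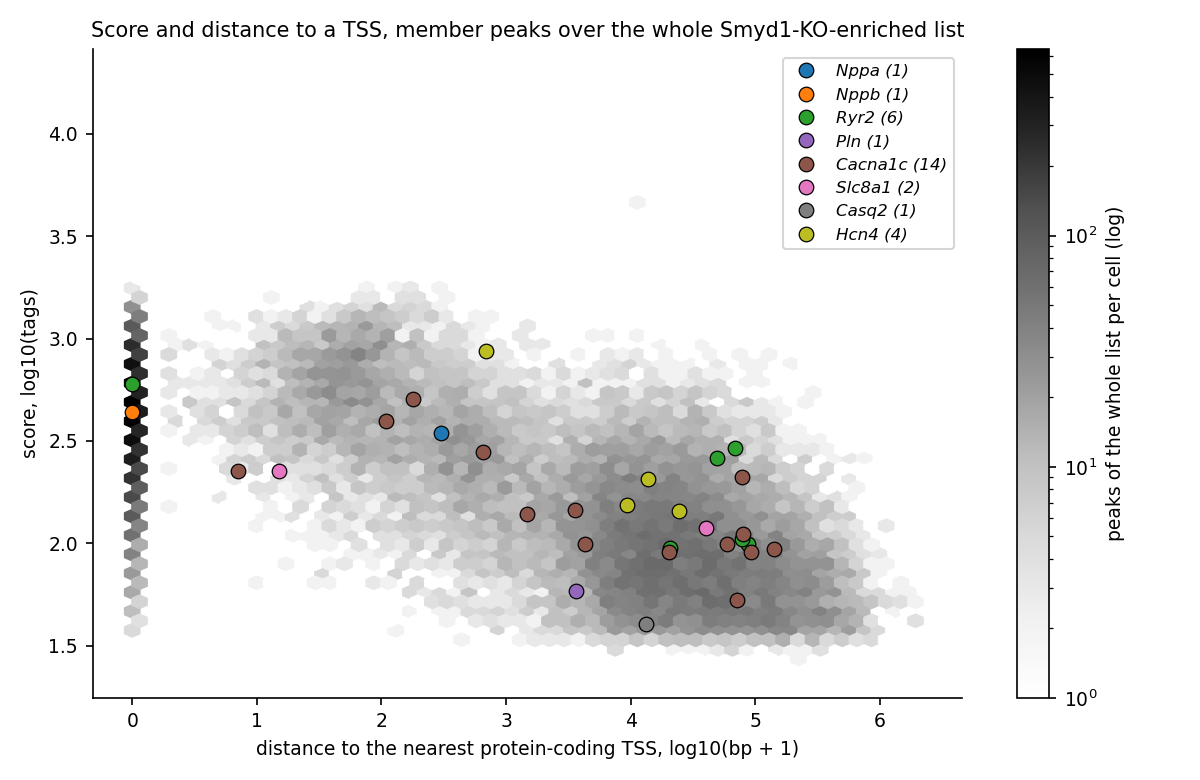
Score against distance to the nearest protein-coding TSS. The x axis is log10 of the distance in bp plus 1, the y axis is log10 of the score in tags, grey cells are the 25745 gained peaks of the whole list (darker for more peaks on a log scale), and coloured points are the 30 peaks of the genes. The intron 1 peaks of *Ryr2* (261.5 and 293 tags) stand at the upper side of the distant peaks, and that of *Casq2* (40.5 tags) is the lowest of the 30.

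The 30 peaks have a median GC content of 52.7%, beside 57.7% for the list, and a median observed/expected CpG ratio of 0.18, beside 0.42. SP/KLF letters were found in 6 of the 30 peaks (20%, list 29.1%), GATA letters in 4 (13.3%, list 8.87%), TEAD letters in 3 (10.0%, list 10.6%) and NKX2-5 letters in 1 (3.33%, list 6.76%). In 12 of the 30 no motif searched was found. With 30 peaks, shares of this size rest on 1 to 6 peaks and are not called different from the list. Only 1 of the 30 peaks, of 99 tags at the upstream edge of *Cacna1c*, holds sequence that recurs elsewhere in the genome, in 14.9% of its 36-base words.

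**Figure D4:**
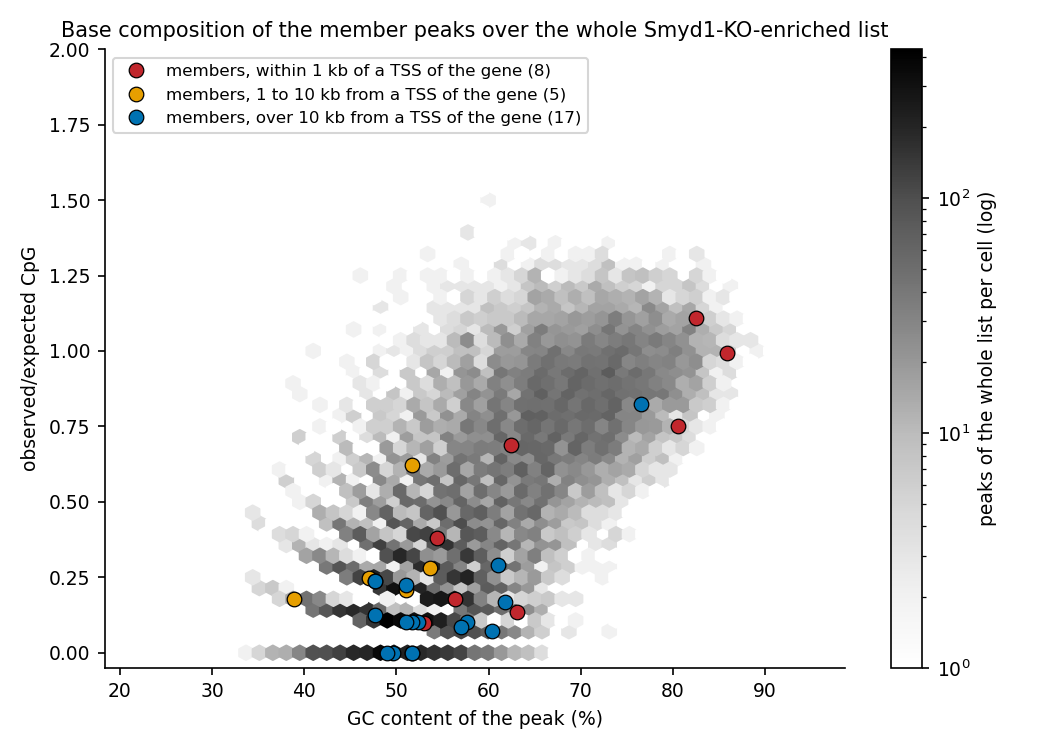
Base composition of the gained peaks. The x axis is the GC content in percent, the y axis the observed/expected CpG ratio, grey cells are the whole list, and points are the 30 peaks coloured by distance to a TSS of their gene. The CpG-rich points at the upper right include the starts of *Ryr2*, *Cacna1c* and *Slc8a1* at 80.5% to 85.9% GC, and most points over 10 kb from a TSS lie below a ratio of 0.30.

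Around the 10 genes, 52 other genes of the same systems were counted in 4 lists. Gained peaks were found at 45 of the 52 (86.5%, beside 62.6% of all protein-coding genes) and within 1 kb of a TSS at 35 (67.3%, beside 48.1%), and a lost peak at none. By length, 21 of 21 genes of at least 100 kb had one (beside 87.8% of all such genes) and 24 of 31 shorter genes (77.4%, beside 59.3%). All 15 genes of release and the store had one, 12 of 16 genes of uptake, extrusion and calcium sensing, 12 of 14 channel and gap junction genes and 6 of 7 genes of the natriuretic peptide system. The lists were chosen with results of these data known, so no test was made of them.

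The highest promoter peaks of the release, uptake and channel lists lay above the 866 tags of *Hcn4*, and that of the peptide list below it. In the release list *Asph*, the junctin gene, stood at 1289 tags and *Calr*, a calcium-binding chaperone, at 1084.5. Among uptake and extrusion genes the calmodulin gene *Calm3* stood at 1255.5 tags and *Atp2b1*, a plasma membrane calcium pump, at 1003.5. The T-type channel gene *Cacna1h* had 982 tags and *Orai1*, a pore of store-operated entry, 760 tags. In the peptide list *Mme*, the peptidase neprilysin, had 496 tags and *Nppc*, encoding the hormone CNP, 365 tags, close to the 347.5 tags of its relative *Nppa*.

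The 7 genes without a gained peak were *Atp2a1* and *Atp2a3*, which encode SERCA pumps as *Atp2a2* does, *Sln* and *Strit1*, small membrane peptides that act on SERCA, the connexin genes *Gjc1* and *Gjd3*, and *Npr1*, the receptor of ANP and BNP. Other small peptides of the pump did have one, *Pln* with 58.5 tags and *Mrln* with 66 tags, and so did the connexin gene *Gja5*, whose highest peak of 231.5 tags has the start of *Gpr89* as its nearest protein-coding TSS. *Mrln* and *Gja5* were named after their values were seen. With 62.6% of all protein-coding genes holding a gained peak, many genes have none, and nothing is read from the families these belong to. Being on neither list does not show that these genes are closed.

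**Figure D5:**
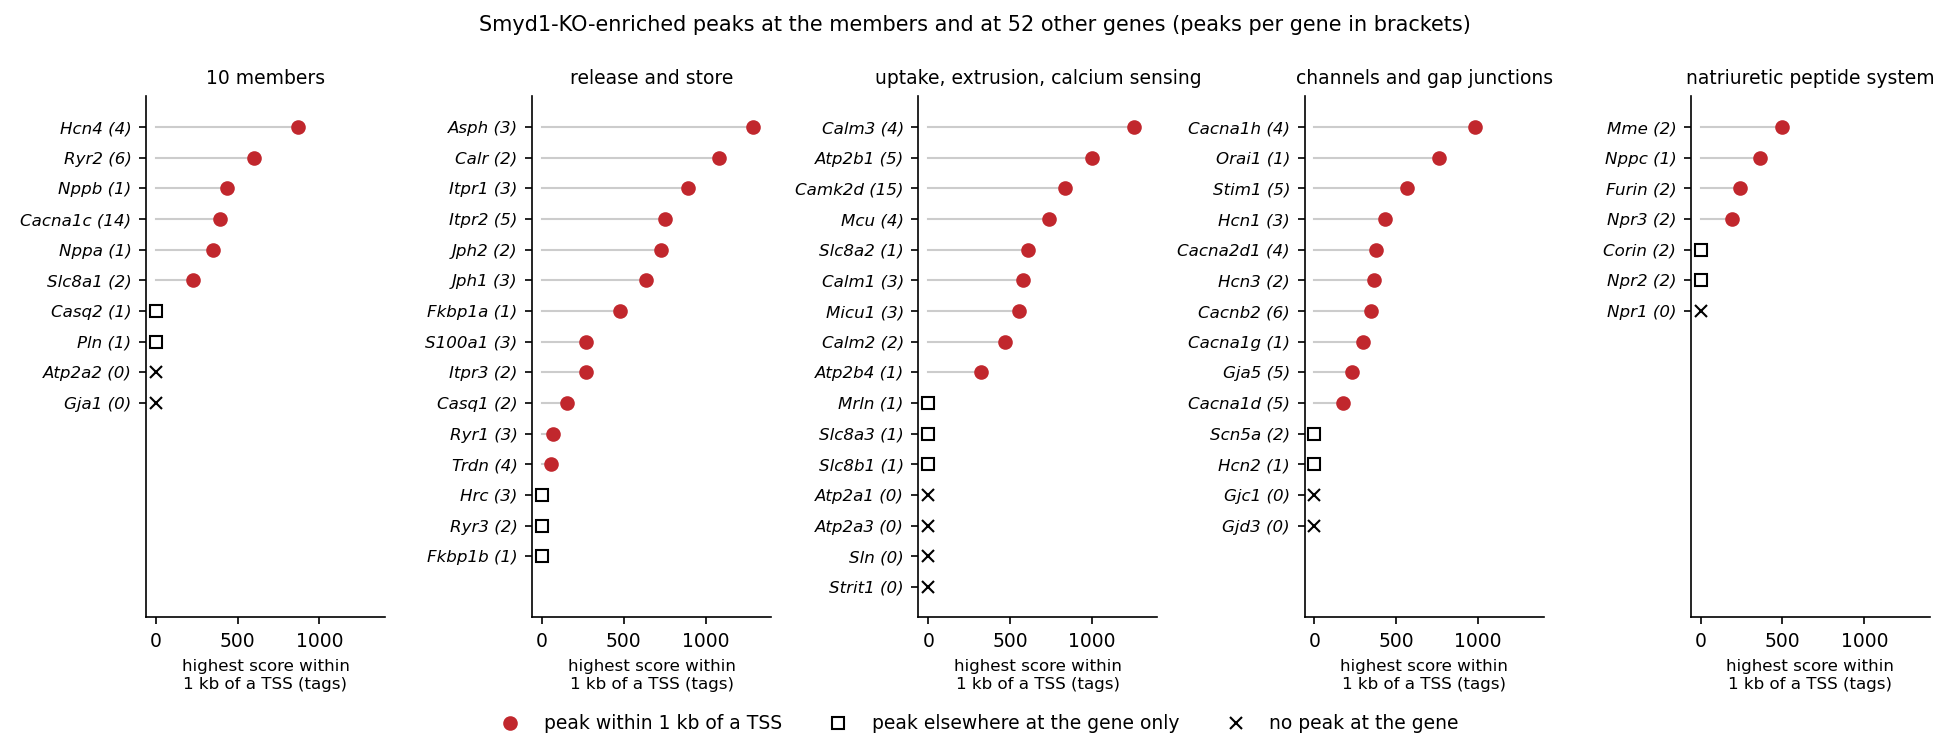
Highest gained peak within 1 kb of a TSS for the 10 genes and for 52 other genes in 4 lists. The x axis is the score in tags, red points are genes with such a peak, open squares are genes with a gained peak elsewhere only, crosses are genes with none, and the number of gained peaks is in brackets. *Hcn4* at 866 tags leads the 10 genes, *Asph* at 1289 tags leads the other lists, and *Atp2a2*, *Gja1* and 7 of the 52 other genes are crosses.

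Marker genes give the other cell types the hearts could hold, counted by the same rule. Gained peaks were found at 6 of 6 cardiomyocyte markers, 3 of 5 endothelial, 2 of 5 erythroid, 2 of 4 epicardial and 1 of 3 neural crest markers, and within 1 kb of a TSS at 5, 1, 0, 2 and 1 of them. The shares of all protein-coding genes are 62.6% and 48.1%, and with 3 to 6 markers a type no list is called different from them. No marker had a lost peak. Since the lists hold differences and not levels, they check the labelled tissue only this far. In tissue made of several cell types, more open chromatin per cell and more cells with that chromatin cannot be told apart, and the part of cell composition in the gains at these genes was not tested.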

How the data were processed

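ATAC-seq was done by the study on 2 *Smyd1-KO* and 2 WT libraries. Per the submitters' notes and methods, the authors aligned reads to mm10 with BWA-MEM, combined the libraries of a genotype, called peaks with HOMER 4.10.3, kept those differing at least 2-fold and annotated them with ChIPseeker 1.20.0. The deposited value is a signal, the authors' pooled tag count per peak. *Smyd1-KO* scores come in steps of 0.5 tags and WT scores do not, so scores were not compared between lists. The treatment of duplicates, multiply mapped reads, the Tn5 offset and the scaling between genotypes is not given in the sources used here.

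Peaks were placed on GENCODE M21 with Python 3.11.15 and pandas 2.3.3, from the nearer edge of the peak to all annotated TSSs. The placing was tested on simulated data. Sequence came from GRCm38, promoters from RefSeq, where 9 of 10 genes matched (*Atp2a2* did not). Distances use GENCODE TSSs, from which the RefSeq start differs by 112 bp at *Nppb* and 463 bp at *Hcn4*. The gene *Strit1* was matched through a RefSeq synonym. Motifs were searched on both strands. Intervals are exact Poisson or Clopper-Pearson 95% intervals (SciPy 1.17.1) and cover counting error only. No test was made, since the lists hold no values per library.

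The 10 genes, the 4 other gene lists and the markers were chosen with earlier results of these data known. All 10 genes are named, with the 6 highest peaks in full where a gene had more than 6. Of each other list, the 2 genes with the highest peak within 1 kb of a TSS and those without a peak are named. Alternatives changed the window, the TSS set, the treatment of the gene body, the score minimum, the overlap, merging and repeated sequence.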

Additional observations from a re-analysis of the deposited data

How the results depend on the processing

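Of 65 alternative counts and medians over the 10 genes and the 52 others, 59 stayed within 1.5 times the value given, and 6 did not. The 30 gained peaks became 48 with a 50 kb window, 13 when the gene body was not counted and 13 with scores at or above the list median only. The 6 genes with a peak within 1 kb of a TSS became 2, *Nppb* and *Ryr2*, when the peak had to cover the TSS. The median score of 145 tags became 226 without the gene body and 293 with scores at or above the list median. These follow from how many and which peaks each setting admits. With a 50 kb window all 10 genes had a gained peak, *Atp2a2* and *Gja1* 1 each, and *Nppb* 7. *Casq2* had none when the gene body was not counted, and neither *Casq2* nor *Pln* had one with scores at or above the list median. With the GENCODE basic transcripts only, *Slc8a1* lost its promoter peak and 5 genes kept one. The count of 0 genes with a lost peak held in every setting run. These counts are among the 59 and say little, as 0.155% of all protein-coding genes had a lost peak under the main rule.

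No paired analysis was possible because the lists pool the libraries of a genotype and carry no replicate numbers, and leaving out a replicate was not possible for the same reason. The scores describe height in *Smyd1-KO* and not the size of the change, and unchanged open chromatin was not analysed here. Low peaks, such as those of *Pln* and *Casq2*, rest on few tags.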

Other observations

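Just outside the 10 kb window, several of the genes had gained peaks above the list median of 180.5 tags, with the gene itself as the nearest protein-coding gene. They stood at 490 tags 26.7 kb upstream of *Ryr2*, at 524 tags 18.6 kb upstream of *Atp2a2*, at 428 tags 20.4 kb upstream of *Hcn4* and at 382 tags 16.2 kb upstream of *Nppb*. The peak 18.6 kb upstream of *Atp2a2* was the highest of these, at a gene with none inside the window. A lower peak of 167.5 tags lay 43.3 kb upstream of *Slc8a1*. In total 18 further gained peaks lay outside the genes at 10 to 50 kb from one of their TSSs. At *Pln*, by contrast, the high peak in this range, 644.5 tags, lies 42 bp from a TSS of *Cep85l*, and the other peaks there stand at 36.5 and 38 tags. These positions were chosen after their values were seen, and nearness does not show which gene a peak acts on.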
